A study of Mus musculus with 8 samples.

Results

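In the brain libraries of this mouse series, 721 genes had fewer than 50% of their counted 3′ ends in the 3′-most exon and the rest at a site in an upstream exon. They were chosen by the wild-type values: the deposited table of upstream sites pairs both counts for 6147 genes, 6001 of these averaged 20 or more reads per library over both sites, and members are the 721 whose share of the 3′-most exon, summed over the 3 wild-type libraries, lay below 50%. The remaining 5280 genes end mainly in the 3′-most exon. The libraries came from total brain of 8 untreated mice on postnatal day 50, 3 wild type and 5 carrying Cstf2 D50A, an exchange at residue 50 of the cleavage stimulation factor subunit CSTF2. All mice shared the C57BL/6NCrl background, from 4 generations of backcrossing followed by breeding within the colony, and the labels do not give their sex or whether the D50A mice also carried a wild-type allele. Per the series title, the exchange lies in the domain through which CSTF2 binds RNA and is linked to intellectual disability, so the question was whether site choice differs between the genotypes. Each library is 1 animal.

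A transcript that is cleaved and polyadenylated in an upstream exon or intron ends before the last exon, and often encodes a protein with another C-terminus. CSTF2 binds U- and GU-rich RNA downstream of a cleavage site and so takes part in the choice between competing sites, together with splicing factors such as the U1 snRNP, which holds back early sites. Brain makes many alternative last exons, among them those of Homer1 and Slc11a2, whose early and late ends yield proteins with different functions or different regulatory sequences.

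Members took 8.26 to 9.75% of the reads of their table, which held between 7075383 and 13145966 reads per library. Markers of cerebellar granule cells set the mutants apart: the mean of the 8 measured markers of 10 listed was 7.48 to 7.80 log2 CPM (log2 of counts scaled to a common library total) in wild types and 7.49 in mutant 5, but 4.37 to 4.54 in mutants 1 to 4. Purkinje cell markers, of which 5 of 7 were measured, ran from 6.79 to 7.17 in wild types, 6.86 in mutant 5 and 5.44 to 5.53 in mutants 1 to 4; Pcp2 and Fat2 were not measured here. Other marker lists differed between libraries too. Cortex and hippocampus markers (8 of 8 measured) were at 7.29 to 8.14 in wild types, 8.03 in mutant 5 and 8.24 to 8.39 in mutants 1 to 4. Neuronal markers (4 of 5 measured) were at 8.52 to 9.14 in wild types and 8.91 to 9.31 in mutants, and endothelial markers (2 of 5 measured) at 5.32 to 6.49 and 5.92 to 6.67. The labels do not give how much cerebellum a sample held, and in bulk tissue fewer cells of a type and less RNA per cell cannot be told apart. Results are therefore given with and without mutant 5, and the part of these marker differences in them was not tested.

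Reads were spread unevenly over the members. The 3 most abundant, Otoa, Gm20388 and Hsp90ab1, held 25.9% of all member reads and the 8 most abundant 37.6%, whereas the median member averaged 250 reads, against 498 for the other genes. Among the members 140 averaged 1000 reads or more and 92 averaged under 50, where a share rests on few reads. Otoa encodes otoancorin, a protein known from the inner ear, and averaged 81605 reads, yet over all 8 libraries 45 of its reads lay in the 3′-most exon. Ndufb8, a subunit of respiratory complex I, averaged 28624 reads and had 212 in its 3′-most exon over all libraries. Gm20388, a gene model with no match in the RefSeq table used for names, had 687. For these 3 genes the upstream site was in effect the only one counted. Whether the upstream reads come from these genes or from another transcript at the same place was not tested.

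Other abundant members used both sites. Hsp90ab1, the constitutive cytosolic chaperone, had shares of the 3′-most exon of 33.1, 30.5 and 39.9% in wild types 1 to 3 and of 47.4, 46.0, 37.2, 44.9 and 32.8% in mutants 1 to 5. Mutants 1, 2 and 4 lay above the wild types, mutants 3 and 5 within their range. The ArfGAP gene Agap3 was even across libraries, with 24.2% ± 2.56 (SD, n = 3) in wild types and 23.96% ± 1.63 (SD, n = 5) in mutants. Hdac8, an X-linked histone deacetylase, had 5.77% ± 0.701 and 5.99% ± 1.12. S100b, a calcium-binding protein of astrocytes, had 5.85, 7.17 and 14.6% in wild types and 20.9, 17.3, 12.2, 18.9 and 6.15% in mutants. Mutant 5 again lay with wild types 1 and 2, and mutant 3 below wild type 3.

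What the members share beyond their share of reads was read from RefSeq, where 705 of 721 symbols had a match (5259 of 5280 for other genes). Their genes were longer, with a median span of 56.8 kb (quartiles 25.7 and 125) against 40 kb (18.0 and 97.1). Another protein-coding gene overlapped 28.2% of the matched members and 21.4% of the matched others. Unnamed gene models (symbols starting with Gm) numbered 21 among the members and 10 among the much larger rest. Of the members 39.7% were also listed with a pair of sites inside the 3′-most exon, against 71.1% of the others, and in those 286 members the sites lay a median of 816 bases apart (quartiles 205 and 2121), against 664 (141 and 1838) in 3752 other genes. These are descriptions of genes selected on site use and read depth.

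Some members carry the counts of a neighbouring gene. In Gm20425 the upstream reads were within 0.16% of those in the 3′-most exon of Trf, the gene of transferrin, in every library, and its 3′-most exon held 723 reads over all libraries. The upstream counts of Gm12353 and of the 3′-most exon of Rmdn1 were identical, and those of Atp6v0a4, a proton pump subunit, came within 0.60% of the distal site of D630045J12Rik. The gene models Gm37013, Gm38666 and Gm38667, which overlap the clustered protocadherins, are 1 set of counts listed under 3 names. For these members the upstream end belongs to reads that are also listed under another gene, and the sources used here do not say whether strand was used in counting.

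Across the 721 members the share of the 3′-most exon in wild types ran from 0.00929% in Otoa up to the limit of 50%, and 25 members lay below 1%. Just inside the limit were Myef2 with 49.96%, Trmt11 with 49.86% and Ulk4 with 49.76%, and just outside it Ccdc9 with 50.12%, Kcnk2 with 50.14% and Sfi1 with 50.18%. The spread between animals was wide, with a median SD of 4.53 percentage points in wild types and 5.32 in mutants.

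**Figure D1:**
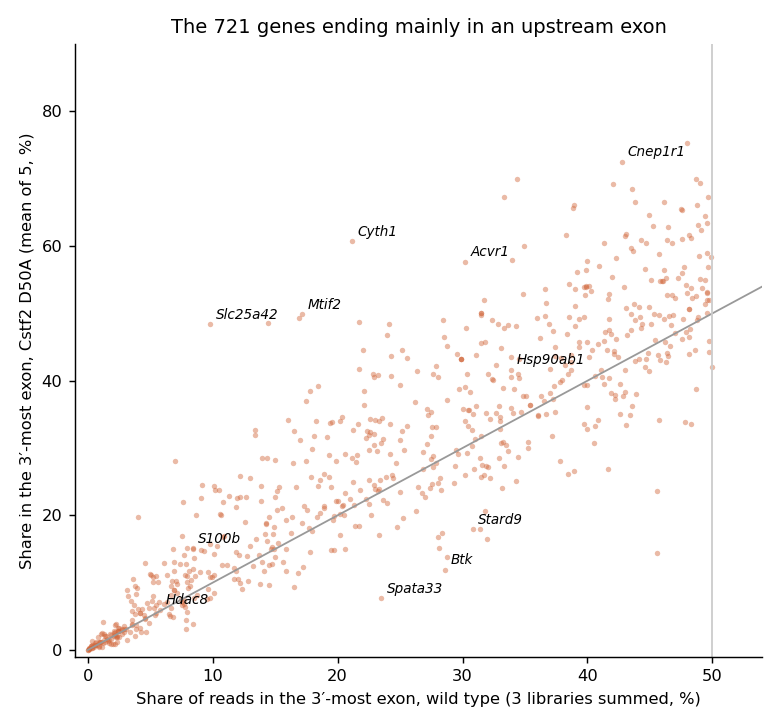
Share of reads in the 3′-most exon (%) of each of the 721 members, with the 3 wild-type libraries summed on the x axis and the mean of the 5 Cstf2 D50A libraries on the y axis; the diagonal marks equal shares and the vertical line the 50% limit that chose the members. Of the members, 516 have a higher mean share in mutants than in wild types. That count uses the mean of the wild-type shares, not their summed reads, so the diagonal need not divide the points in exactly this way. The names mark genes described in the text.

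The mean share was higher in mutants for 516 members and lower for 205, with a median difference of 2.64 points, and 102 members had a mutant mean of 50% or more. Because low wild-type shares chose the members, a higher mutant share is built into part of this, so no test of it is read here. Choosing by the mutant shares instead gave 645 genes, 605 of them members, with a median difference of 1.09 points. Among the 490 members below 50% in each of the 8 libraries, a choice made after seeing the data, it was 1.13 points, and over all 6001 genes 0.249 points. Most of the 6001 genes start from a high share, so their points cannot be set directly against those of the members. On the log2 scale the gap was smaller. The median log2 change in edgeR was 0.296 over the 721 members, where the choice is again built in, and 0.169 over all 6001 genes. It was 0.150 over the 645 genes and 0.177 over the 490 members. The sets of 645 and 490 genes consist mostly or wholly of members and rest on the same shares, so neither is an independent check of the direction. The 6001 genes were not chosen on the share, but they include the 721 members. The size depended on the choice. Most members moved little in points: 536 differed by less than 10 points, 35 were more than 20 points higher and 2 more than 20 points lower. A share below 20% cannot fall by more than 20 points, so part of this imbalance is fixed by the low shares that chose the members. The 25 members below 1% and the 79 at 1 to 5% had median differences of only 0.11 and 0.27 points.

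The same counts are given from the test across all genes, with no reading of them for the members. No member passed an adjusted p of 0.05 in edgeR's quasi-likelihood test of site by genotype (0 of 6001 genes, 0%), and 1 did in DESeq2 (background 0.0833%). At an unadjusted p under 0.05 in edgeR, 130 members were higher in mutants (background 10.4%) and 17 lower (3.63%). All 5 mutants lay above all 3 wild types in 22 members (3.05%, background 4.23%) and below them in 5 (0.693%, background 1.65%). The genes described below as not overlapping in this share come from these few.

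Single libraries decided those calls. Without mutant 5, edgeR called 47 members higher (background 2.85%) and 5 lower (1.08%). Mutants 1 to 4 all had granule cell markers far below every wild type (4.37 to 4.54 against 7.48 to 7.80 log2 CPM). In the calls without mutant 5, genotype and this marker difference therefore cannot be told apart. Without wild type 3, it called 33 higher (background 2.02%) and 1 lower (0.667%), and 22 members were called in both. In 543 of the 721 members mutant 5 lay nearer the wild-type mean than the mean of mutants 1 to 4. Wild type 3 was the highest wild type in 396 members and the lowest in 160. Relative to each member's wild-type mean, the median difference was 4.40, 3.80, 1.43 and 3.31 points in mutants 1 to 4, -0.12 in mutant 5, and -1.06, -0.81 and 1.63 in wild types 1 to 3. The median member share itself was 20.5, 22.8 and 27.2% in wild types 1 to 3 and 31.9, 30.4, 25.8, 30.6 and 23.5% in mutants 1 to 5. Neuronal markers were at 8.52, 8.70 and 9.14 log2 CPM in the wild types and 9.31, 9.22, 9.03, 9.28 and 8.91 in the mutants. They put the 8 libraries in the same order as the median share, with wild type 3 between mutants 3 and 2. None of the other marker lists, the cerebellar ones included, gave exactly that order. Cortex and hippocampus markers departed from it only in placing wild type 3 below mutant 3 (8.14 against 8.24), and endothelial markers were also near it. The order is thus not particular to the neuronal list. The median difference put mutant 4 below mutant 2. The part of the markers in the shares was not tested.

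**Figure D2:**
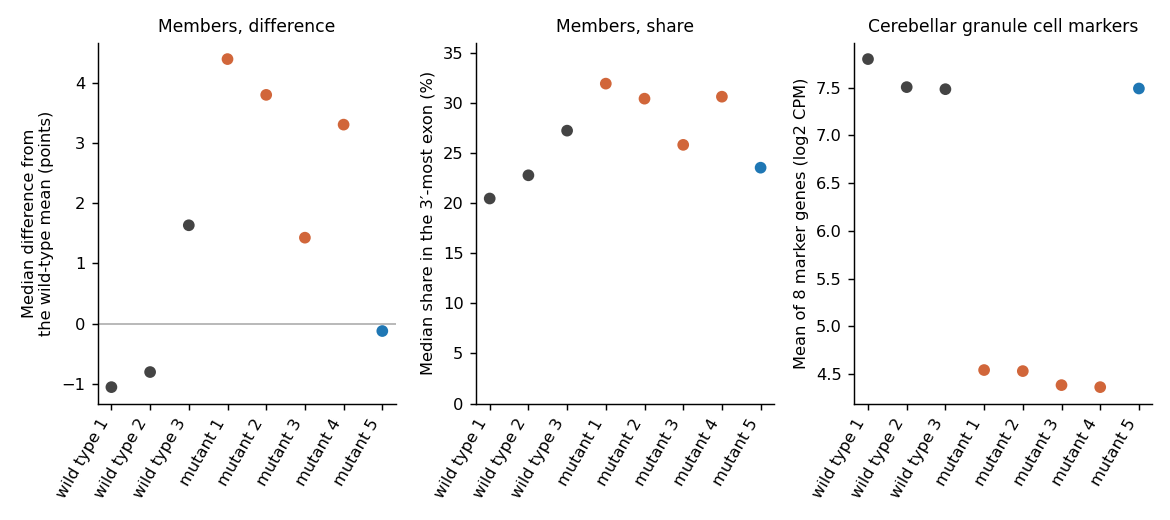
Per-library values for 3 wild-type (grey), 4 mutant (orange) and the fifth mutant library (blue): the median over members of the difference from each member's wild-type mean (percentage points), the median member share in the 3′-most exon (%), and the mean of 8 cerebellar granule cell markers (log2 CPM, axis not from 0). Mutants 1 to 4 have marker levels of 4.37 to 4.54, while mutant 5 with 7.49 and a median share of 23.5% sits with the wild types in both. Mutant 3, with a low marker level of 4.39, also has a median share (25.8%) within the wild-type range.

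Over the members the median log2 ratio of mutant to wild-type CPM was -0.09 at the upstream site and 0.18 in the 3′-most exon; over all genes tested it was -0.06 and 0.08. Few wild-type reads in the 3′-most exon chose the members, so part of the gap between their sites is built in and it is given as a description.

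The largest differences were in sparsely read genes. Cyth1, a cytohesin that activates ARF GTPases, had 16.7, 5.13 and 39.5% in wild types and 60, 70.4, 58.1, 78.7 and 36.2% in mutants 1 to 5, from an average of 92.3 reads. Mutants 1 to 4 lay above every wild type, and mutant 5 just below wild type 3. In Slc25a42, the mitochondrial carrier of coenzyme A, the shares were 8.82, 2.53 and 25% against 64.6, 59.5, 52.9, 48.8 and 16.3%, from an average of 50.6 reads. The tetraspanin gene Tspan18 had 3.85, 10 and 31.5% against 57.8, 65.5, 50.0, 62.0 and 11.3%. In both genes mutant 5 fell among the wild types.

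Mtif2, the initiation factor of mitochondrial translation, was the member that DESeq2 called. Its shares were 13.5, 7.65 and 31.7% in wild types and 52.6, 58.4, 44.1, 59.8 and 34.6% in mutants. The genotypes did not overlap, and mutant 5 was the lowest mutant, not far above wild type 3. Acvr1, a type I receptor for bone morphogenetic proteins, had 15.2, 9.87 and 51.1% against 73.0, 65.3, 41.3, 76.7 and 31.9%, with wild type 3 above mutants 3 and 5. Pdzrn3, a ubiquitin ligase with PDZ domains, had 41.2% ± 18.6 (SD, n = 3) and 70.0% ± 9.34 (SD, n = 5); Cdyl, a chromodomain corepressor, had 38.0% ± 21.2 and 65.7% ± 16.8; and Cnep1r1, which regulates a nuclear envelope phosphatase, had 41.9% ± 27.9 and 72.5% ± 13.1. In these 3 genes wild type 3 was far above wild types 1 and 2.

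**Figure D3:**
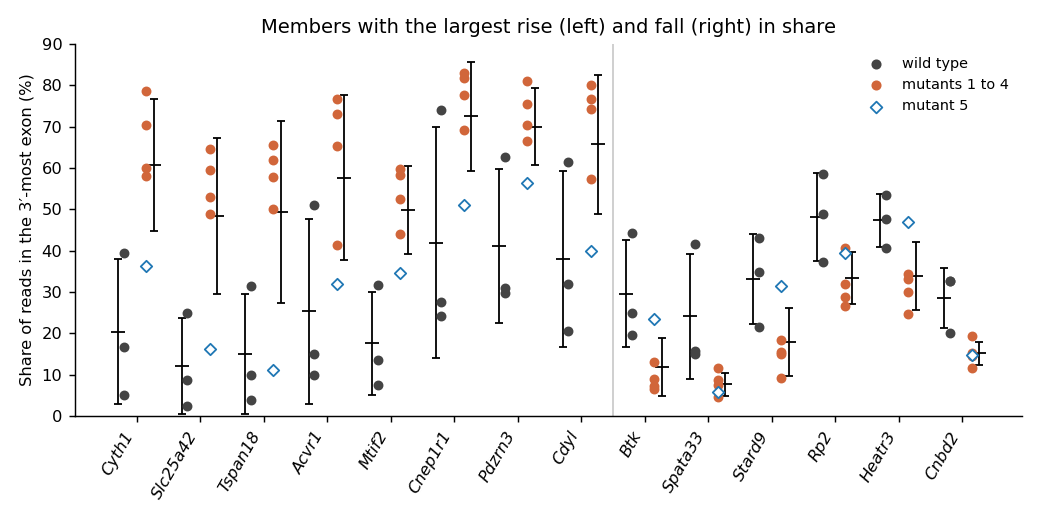
Share of reads in the 3′-most exon (%) in each library for the 8 members with the largest rise and the 6 with the largest fall in mean share among those averaging 50 or more reads; dots are libraries, the open diamond is mutant 5, and bars give the mean ± SD of each genotype (n = 3 and 5). In Tspan18 mutant 5 stands at 11.3% among the wild types, while in Spata33 and Cnbd2 all 5 mutants lie below all wild types.

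Falls ran the other way in fewer genes. Btk, the tyrosine kinase of B cells and microglia, had 25, 44.3 and 19.7% in wild types and 6.67, 7.41, 13.1, 8.94 and 23.5% in mutants. Mutants 1 to 4 lay below the wild types and mutant 5 among them. Spata33 had 15.8, 41.7 and 15% against 4.55, 11.6, 7.55, 8.85 and 5.88%, and Cnbd2, with a cyclic nucleotide-binding domain, 32.7, 32.8 and 20.1% against 14.6, 19.4, 15.3, 11.8 and 14.8%. In both, mutant 5 lay with the other mutants. Stard9, a kinesin with a lipid-binding START domain, had 33.1% ± 10.9 and 18.0% ± 8.24, Rp2, a GTPase-activating protein for ARL3, 48.2% ± 10.6 and 33.5% ± 6.32, and Heatr3 47.4% ± 6.45 and 33.9% ± 8.19.

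The members were next read by what they encode, in 10 groups of 210 genes put together after their values had been seen. The groups give an order and no evidence of their own. For comparison, all 721 members split 516 higher to 205 lower, with a median of 2.64 points. The 511 members in no group split 349 to 162, with a median of 1.99 points. Of 10 genes of 3′ end formation and transcription elongation, 10 had a higher mean share in mutants, with a median of 3.84 points. Cstf3, the CSTF subunit that bridges CSTF1 and CSTF2 and is known for a short form ending in an early intron, had 29.4, 32.4 and 29.1% in wild types and 40.8, 38.2, 39.5, 27.3 and 32.6% in mutants. Mutants 1 to 3 and, narrowly, mutant 5 lay above the wild types and mutant 4 below them. The poly(A) polymerase gene Papola was close to even, with 36.6% ± 2.60 and 38.1% ± 4.73. Rbbp6, a ubiquitin ligase of the cleavage complex, had 20.5% ± 10.9 and 32.5% ± 10.4, and its mutant 5 with 16.9% lay among the wild types. None of the 10 passed an unadjusted p of 0.05 in edgeR.

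Among 29 genes of splicing and RNA binding, 22 were higher and 7 lower, with a median of 3.53 points. Luc7l2 and Luc7l3, relatives of a yeast U1 snRNP protein, were on the lower side, with 33.6% ± 2.81 and 27.4% ± 4.89 for Luc7l2 and 44.6% ± 4.83 and 42.1% ± 1.08 for Luc7l3. Hnrnpu, a nuclear scaffold RNA-binding protein, had 59.8, 48.7 and 33.0% against 26.7, 28.5, 41.3, 24.2 and 49.9%. Mutants 1, 2 and 4 lay below all wild types, and mutants 3 and 5 within their range. Rbfox1, a splicing regulator of neurons, had 19.9, 36.9 and 45.2% against 48.9, 51.9, 43.0, 51.2 and 29.7%. Hnrnpa2b1 had 7.75% ± 1.95 and 11.2% ± 2.96, and Khdrbs2, a splicing factor of the brain, 22.4% ± 7.31 and 30.4% ± 9.19. Qk, the RNA-binding protein of myelinating glia, differed little, with 20.7 to 21.2% in wild types, 22.7 to 23.0% in mutants 1 to 4, all above the wild types, and 20.8% in mutant 5.

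Lists of factors were counted over all genes of the table, members or not. Of 35 genes listed for the cleavage and polyadenylation machinery 19 were tested, 11 with a higher and 8 with a lower mean share, and 3 of them (Cstf3, Papola and Rbbp6) are members. The list of U1 snRNP and splicing factors had 8 higher and 5 lower of 13 tested, and neuronal RNA-binding proteins 14 and 6 of 20, with 3 members each; all tested genes split 3760 to 2241. No gene of the lists passed the edgeR test.

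Genes of synapses and neuronal signalling numbered 33, of which 22 were higher and 11 lower, with a median of 1.5 points. Homer1, a postsynaptic scaffold whose short form ends in an intron and acts against the long form, had 41.7, 43.7 and 54.3% in wild types and 54.9, 55.3, 55.9, 54.1 and 43.6% in mutants. Wild type 3 stood with mutants 1 to 4 and mutant 5 with wild types 1 and 2. Lrrc7, the postsynaptic protein densin, had 26.2, 27.7 and 55.7% against 75.5, 67.1, 54.97, 72.6 and 38.1%. Gnas, the stimulatory G protein subunit, was 28.6, 29.9 and 31.8% in wild types and 47.2, 45.2, 35.8, 40.6 and 26.8% in mutants. Kalrn, an exchange factor for small GTPases in dendritic spines, had 7.35% ± 1.56 and 8.85% ± 1.49, and Syn2, a synaptic vesicle protein, 12.8% ± 1.38 and 12.5% ± 1.91. In the adhesion receptor gene Adgrl3 the genotypes did not overlap, with 11.8, 15.3 and 18.0% against 25.2, 25.7, 20.1, 26.9 and 22.7%.

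In 14 genes of cadherins and axonal adhesion, 12 were higher and 2 lower, with a median of 5.56 points. Cd200, a membrane glycoprotein of neurons that restrains microglia, had 39.1, 45.3 and 45.1% in wild types and 77.2, 83.6, 69.1, 57.0 and 55.4% in mutants. All mutants exceeded all wild types, mutant 5 included. Pcdh10, a protocadherin, had 20.4% ± 5.16 and 17.1% ± 3.23. Of 27 genes of the cytoskeleton and its small GTPases, 23 were higher and 4 lower, with a median of 5.64 points. The small GTPase gene Cdc42, whose alternative last exon gives a brain form, was among the 4, with 42.5% ± 6.84 and 37.8% ± 5.70. Tpm1, a tropomyosin with alternative last exons, had 20.4, 20.4 and 23.2% against 27.6, 27.2, 24.5, 23.6 and 21.96%, and Map1b, a microtubule protein of axons, 37.0% ± 4.78 and 43.7% ± 5.50. Nav2, a neuron navigator, had no overlap, with 41.0% ± 3.55 and 52.1% ± 4.99.

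The 36 chromatin and transcription regulators split 31 to 5, with a median of 4.15 points. Foxk2, a forkhead factor, had 22.1, 28.3 and 24.8% in wild types and 35.1, 30.7, 32.1, 37.9 and 30.5% in mutants, all above the wild types. Mllt10, which recruits the histone methyltransferase DOT1L, did so at a low level, with 1.05% ± 0.189 and 2.45% ± 0.804. Brd2, a bromodomain reader of acetylated histones, had 3.52% ± 2.42 and 8.08% ± 3.85. Cux1, a homeodomain factor, was lower, with 20.8, 18.5 and 14.2% against 11.0, 12.3, 11.4, 12.5 and 14.8%, where mutant 5 overlapped wild type 3. Zbtb20, a zinc finger factor of hippocampal neurons and astrocytes, had 0.108% ± 0.0203 and 0.231% ± 0.0723 from 125 reads in the 3′-most exon over all libraries.

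Of 17 genes of protein folding and quality control, 14 were higher and 3 lower, with the largest median of the 10 groups, 7.18 points. Arih1, a ubiquitin ligase with 5886 reads on average, had 14.7, 14.4 and 31.3% in wild types and 40.2, 36.9, 28.6, 39.9 and 22.9% in mutants. Wild type 3 exceeded mutants 3 and 5. Eif2ak3, the kinase PERK of the unfolded protein response, had 10.1% ± 5.69 and 23.8% ± 6.52, and Hsp90b1, the chaperone of the endoplasmic reticulum, 38.4% ± 20.6 and 57.0% ± 17.0. Dnajb6, a co-chaperone whose forms differ in the C-terminus, was even, with 42.6% ± 5.44 and 41.7% ± 5.44.

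Of 15 mitochondrial and translation genes 11 were higher (median of all 15, 2.17 points), and of 22 genes of receptor and kinase signalling 17 were higher (median 5.27 points). Besides Mtif2, Timm10b, an import chaperone of mitochondria, and Csnk2a2, a catalytic subunit of casein kinase 2, had no overlap. Csnk2a2 had 13.7, 5.49 and 20.9% against 32.9, 38.5, 31.5, 38.7 and 21.6%, with mutant 5 just above wild type 3. Of 7 glial genes, 5 were higher, with a median of 4.01 points. Gfap, the intermediate filament of astrocytes with a known alternative last exon, had 46.9, 42.8 and 45.3% in wild types and 52.5, 51.6, 53.2, 50.2 and 47.3% in mutants and mutant 5 stood narrowly above wild type 1. Mobp, a myelin protein, had 38.8% ± 5.18 and 42.8% ± 4.66.

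The summed level of both sites, which the rule used only through its minimum, did not pass the test in any member. After TMM scaling, edgeR called 0 of 721 members (background 0%), and DESeq2 called 0 (0%). The lowest adjusted p among members was 0.33 in edgeR and 0.054 in DESeq2, just above the threshold. At an unadjusted p under 0.05 in edgeR, 49 members were higher in mutants (background 7.60%) and 69 lower (7.47%). The median log2 difference was -0.01 over members and 0.01 over all genes. All mutants lay above all wild types in 16 members (background 2.28%) and below in 22 (2.50%). The members' shares are near the background in each of these counts.

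The 5 members with the lowest p-values in each direction differed by -1.07 to 1.76 on the log2 scale. Bod1l, a protein of replication fork protection, had 3.33, 3.47 and 3.51 log2 CPM in wild types and 4.04, 4.18, 4.27, 4.04 and 3.88 in mutants, a log2 difference of 0.66 ± 0.15 (SE) with an adjusted p of 0.33 in edgeR. Its genotypes did not overlap. Ccbe1, a secreted factor of lymphatic growth, did not overlap either, with 2.79, 2.39 and 2.41 against 3.08, 3.32, 3.12, 3.28 and 3.16 (0.69 ± 0.17). The uncharacterised 9230110C19Rik differed by 1.08 ± 0.28, and Trmt11, a tRNA methyltransferase subunit, by -0.63 ± 0.17, with 4.04, 3.52 and 3.56 against 3.18, 3.17, 3.12, 2.96 and 3.08. A730008H23Rik differed by -1.07 ± 0.30 and Gm27021 by -0.50 ± 0.15. In Bod1l, Ccbe1 and Trmt11 mutant 5 lay with the other mutants.

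In other genes mutant 5 stood apart from the other mutants. Gemin6, a component of the SMN complex that assembles snRNPs, had 1.20, 0.50 and 2.00 log2 CPM in wild types and 3.45, 3.20, 2.74, 3.37 and 1.71 in mutants. The integrin gene Itga11 had 1.20, 1.14 and 1.96 against 3.10, 3.12, 2.93, 3.20 and 1.43. Mutant 5 lay within the wild-type range in both genes. Slc22a4, a carrier of ergothioneine, had 3.56, 3.17 and 2.65 against 1.98, 1.68, 2.05, 2.14 and 2.84. Asph, an aspartyl hydroxylase gene, had 8.47, 8.11 and 8.20 against 7.59, 7.69, 7.53, 7.61 and 8.18. S100b had 11.95, 11.40 and 10.94 against 10.25, 10.45, 10.45, 10.25 and 11.38. These 3 were lower in mutants 1 to 4 than in every wild type, while mutant 5 lay within the wild-type range.

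Without mutant 5, edgeR called 4 members higher (background 0.350%) and 10 lower (0.732%) in level. In these calls, too, genotype and the cerebellar marker difference cannot be told apart. Over all 721 members, mutant 5 lay nearer the wild-type mean in 483. In the 14 called members it lay within the wild-type range in 11, which is partly built in, since they were called only when it was left out. The 4 higher members were Gemin6, Itga11, 9230110C19Rik and Cacna2d4, a calcium channel subunit gene. The lower ones include Grm4, a glutamate receptor known from cerebellar granule cells, with 7.84, 8.59 and 8.23 in wild types and 6.71, 6.76, 6.94, 6.60 and 8.84 in mutants; Zic4, a transcription factor of the cerebellum, with 4.04 ± 0.27 (SD, n = 3) and 3.12 ± 0.50 (SD, n = 5); Gria4, an AMPA receptor subunit, with 8.22 ± 0.19 and 7.70 ± 0.27; and Gprc5c, an orphan receptor, with 6.41, 6.99 and 6.76 against 4.38, 4.52, 4.85, 4.52 and 6.80. The largest difference among them was in Arhgef33, a guanine nucleotide exchange factor, with 4.98, 4.55 and 4.44 against 1.62, 1.03, 0.22, 1.06 and 4.72. In Grm4, Gprc5c and Arhgef33 mutants 1 to 4 lay below every wild type and mutant 5 did not, as in the cerebellar markers, whose part in these levels was not tested.

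**Figure D4:**
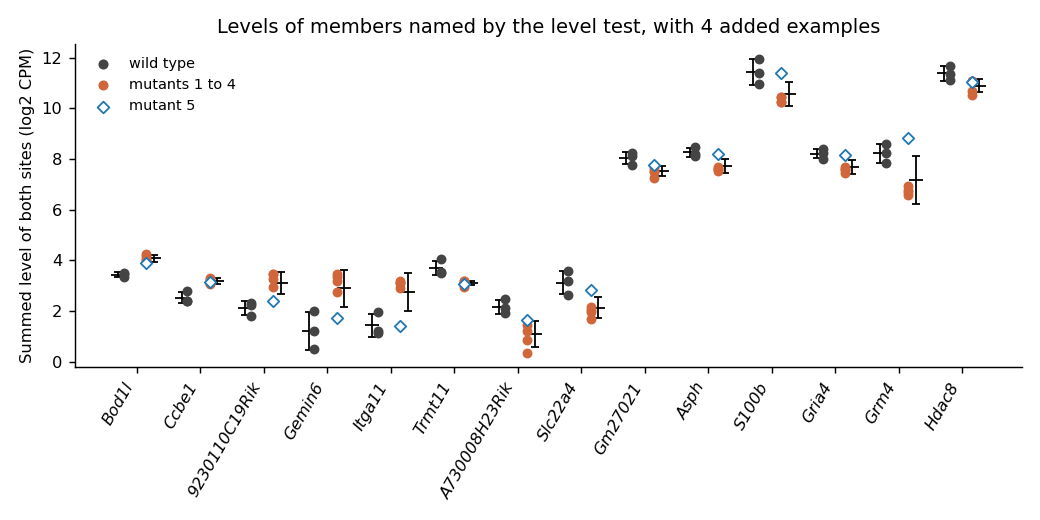
Summed level of both sites (log2 CPM) in each library for the 5 members with the lowest p in each direction of the level test. S100b, Gria4, Grm4 and Hdac8 were added after their values were seen. Dots are libraries, the open diamond is mutant 5, and bars give the mean ± SD of each genotype (n = 3 and 5). In Itga11, Asph and Grm4 mutant 5 sits with the wild types, and in Bod1l and Ccbe1 with the mutants.

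Within the 3′-most exon, 272 members could be tested for the split between a proximal and a distal site. The rule did not use this split, but it chose genes with a low wild-type share of reads in that exon. The split divides those same reads, so in wild types it can rest on few of them. Wild-type read numbers are not given for the genes named below, so the part of low depth in their differences was not tested. No member passed in edgeR (background 0%), and 1, Tmod3, passed in DESeq2 (background 0.279%) with an adjusted p of 0.046. At an unadjusted p under 0.05 in edgeR, the distal share was higher in mutants in 27 members (background 8.67%) and lower in 15 (4.25%). The median log2 change was 0.14 over members and 0.12 over all 7876 pairs tested. All mutants lay above all wild types in 9 members (background 2.53%) and below in 5 (1.63%).

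Tmod3, a tropomodulin that caps the pointed ends of actin filaments, has sites at positions 75347453 and 75345587 of its chromosome (build mm9, per the submitters' processing notes; the table gives no chromosome). Its distal share was 41.1, 38.1 and 57.1% in wild types and 67.6, 74.5, 72.1, 71.5 and 66.7% in mutants, a log2 change of 1.51 ± 0.33 (SE) in edgeR from an average of 104 reads. The genotypes did not overlap, and mutant 5 was the lowest mutant. In Lrp1b, a lipoprotein receptor relative with sites 241 bases apart, it was 6.90, 10.1 and 13.8% against 30.4, 34.2, 31.8, 33.3 and 19.6%, a log2 change of 1.83 ± 0.39. Ccar1, a transcriptional coactivator with sites 544 bases apart, had 10.5, 2.63 and 13.8% against 25.7, 32.9, 32.3, 35.3 and 26.0% (2.01 ± 0.46). Dmd, the dystrophin gene with sites 2462 bases apart, had 65.4, 57.3 and 72.7% against 83.2, 94.0, 89.8, 81.1 and 80.0% (1.71 ± 0.45). In all 4 genes the 5 mutants lay above the 3 wild types, all 4 had an adjusted p of 0.38 in edgeR, and all but Tmod3 missed the threshold in DESeq2.

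The distal share was lower in 4 further named members. Hnrnpll, a splicing regulator related to hnRNP L, had 52.9, 55.9 and 51.6% in wild types and 39.1, 37.1, 30.6, 37.0 and 35.9% in mutants, from sites 1801 bases apart and with a log2 change of -1.03 ± 0.26. Slc11a2, the divalent metal transporter whose early and late ends differ in an iron-responsive element, had 52.1, 51.8 and 45% against 35.3, 35.2, 37.5, 37.1 and 41.9% (-0.72 ± 0.22). Neither overlapped between the genotypes, while the share of the 3′-most exon in Slc11a2 was 24.1% ± 1.51 and 25.8% ± 2.88. Csnk2a2 had 12.7, 25 and 7.69% against 4.44, 2.46, 3.08, 1.87 and 8.59%, and Arhgef28, a guanine nucleotide exchange factor, 34.5, 51.1 and 37.5% against 9.57, 9.76, 22.5, 10.5 and 34.5%. In these last 2, mutant 5 reached the wild-type range.

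**Figure D5:**
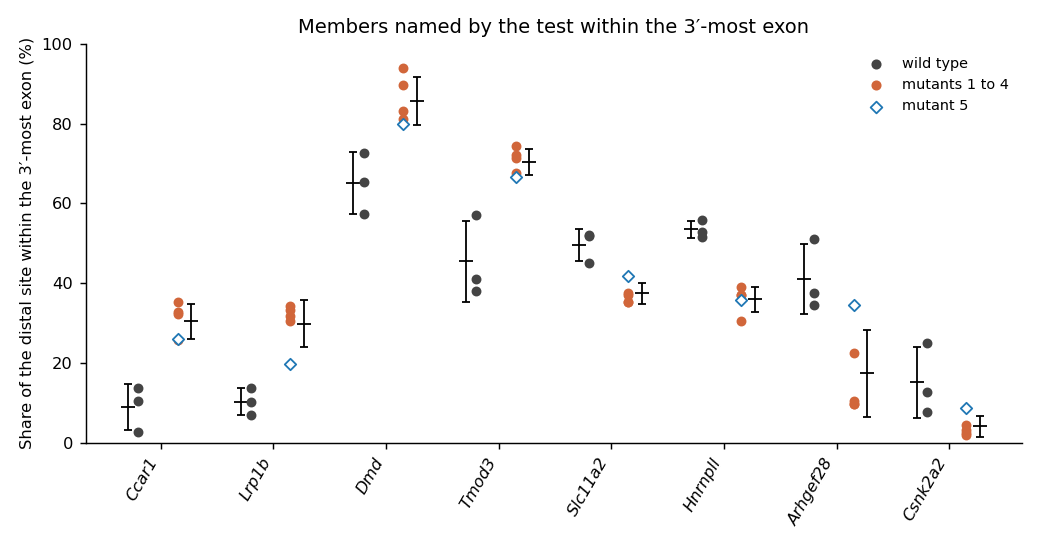
Share of the distal site among the reads of both sites within the 3′-most exon (%) for the 8 members with the lowest p in either direction; dots are libraries, the open diamond is mutant 5, and bars give the mean ± SD of each genotype (n = 3 and 5). Mutants lie above the wild types in Tmod3, Lrp1b, Ccar1 and Dmd, and below them in Hnrnpll and Slc11a2.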

How the data were processed

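Libraries came from a QuantSeq 3′ mRNA-Seq REV kit, which primes on poly(A), per the labels' protocols. The values deposited by the authors are raw counts of reads at each site, per the file headers; FastQC 0.11.3, STAR 2.5, HTSeq 0.6.0 and mm9 are named in the submitters' processing notes without roles. The picking of sites and the use of strand are not given in the sources used here. The members, gene lists and tests were chosen with earlier results of these data known. Shares are reads in the 3′-most exon over reads of both sites. Pairs were tested if both sites together had a mean of 20 reads and each site had 10 reads in total over the libraries. The test used edgeR 4.0.16 (quasi-likelihood, library as a block, site by genotype, SE from the F statistic). Levels were tested on summed counts after TMM scaling, and p-values were adjusted by Benjamini-Hochberg over the whole table. Alternatives used DESeq2 1.42.0 and limma 3.58.1 in R 4.3.3; the fits were tested on simulated data. Log2 CPM used a prior count of 2. Named members were the 8 with most reads, the 8 with the lowest wild-type share (mean of 100 reads), the 8 largest rises and 6 largest falls (mean of 50 reads), the 3 on each side of the limit, members called by edgeR or DESeq2, the lowest p-values of the other tests (5 and 4 per direction) and the listed factors; the other genes were added as examples after their values were seen. RefSeq symbols and gene spans are those of GRCm38.p6. No sequence was printed, since no genome of the files' build was used.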

Additional observations from a re-analysis of the deposited data

Results flagged for a closer look

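In each of 88 values described for the 5 mutants, the highest and lowest library were compared with the rest by Dixon's ratio; 8 had a library that stood apart, and in all 8 it was mutant 5. Chance flags about 1 in 20 groups, and the values share libraries.

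The share of the 3′-most exon in mutant 5 was 11.3% in Tspan18 (50.0 to 65.5% in the other mutants), 39.5% in 9230110C19Rik (67.4 to 70.7%) and 20.8% in Qk (22.7 to 23.0%). Its summed level was 1.43 log2 CPM in Itga11 (2.93 to 3.20) and 8.18 in Asph (7.53 to 7.69). The distal share of Lrp1b was 19.6% (30.4 to 34.2%). The mean of cerebellar granule cell markers was 7.49 (4.37 to 4.54) and that of Purkinje cell markers 6.86 (5.44 to 5.53).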

How the results depend on the processing

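No paired analysis was possible because the labels pair no animals and the replicate numbers only name libraries. The number of members called was 0 in all 3 tests and stayed 0 with limma (share and distal share), without the filter, with a mean of 50 reads, with 1 row per set of counts and, for levels, with RLE factors, library totals or DESeq2; DESeq2 called 1 member by share and 1 by distal share. Leaving out 1 library gave 0 to 52 called members by share, 0 to 14 by level and 0 by distal share. Counts other than 0 came from leaving out mutant 5 (52 by share, 14 by level) and wild type 3 (34 by share). The median difference in share, 2.64 points, was 1.09 with members chosen on mutants and 1.13 with members below 50% in each library, and 2.06 to 3.49 with 1 library left out; the other choices gave 1.51 to 3.51 points and 506 to 734 members. For the named members, 13 of 726 log2 changes in share, 20 of 782 in level and 7 of 322 in distal share took the opposite sign under an alternative, none of them past the threshold. Shares of genes averaging under 50 reads are limited by depth.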
